A study of Mus musculus with 7 samples.

Results

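The genes of the Wnt ligands, their Frizzled receptors and the secreted antagonists of the Sfrp and Dkk families were followed through H3K27me3 reads over gene bodies in mouse spermatocytes. Members were all symbols present once in both count files that begin with Wnt, Fzd, Sfrp or Dkk followed by a number and at most 1 letter. This gave 37 genes among 23220 such symbols in 23530 entries: 19 Wnt, 10 Fzd, 4 Sfrp and 4 Dkk genes. Spermatocytes of wild-type CD1 mice were compared at postnatal day 17 (P17) and postnatal day 12 (P12). The cells came from whole testes, freed with trypsin and collagenase and separated on Percoll, and chromatin was immunoprecipitated with antibody ab6002. The P17 file pooled 2 replicates and the P12 file held 1, so each stage is a single value with no replicate check. Intervals below are exact conditional (Clopper-Pearson) 95% intervals that cover counting error only. No p-value was computed, and no difference between stages or families was tested.

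Wnt proteins are secreted, lipid-modified ligands that bind Frizzled receptors on the surface of neighbouring cells, either stabilising beta-catenin through Lrp co-receptors or steering cell polarity. Sfrp proteins carry a Frizzled-like cysteine-rich domain and bind Wnt ligands outside the cell, whereas Dkk proteins act mainly on the Lrp co-receptors. Many of these genes are developmental regulators with CpG-rich promoters, a class on which Polycomb repressive complex 2 lays down H3K27me3, a mark of repressed genes. Most Frizzled genes have a coding sequence without introns; Fzd3, Fzd4 and Fzd6 are exceptions.

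Promoter windows from RefSeq (build GRCm38.p6, 300 bases around the annotated start) were found for 25 of the 37 genes. No window was listed for Fzd2, Fzd3, Fzd6, Fzd8, Sfrp1, Sfrp4, Dkk3, Dkk4, Wnt5a, Wnt7b, Wnt8a and Wnt10a. The windows below show the Frizzled gene with the highest P17 over P12 ratio (Fzd4), a pair of close Frizzled paralogues with different ratios (Fzd9 and Fzd10), a Wnt gene whose ratio was near that of the typical gene (Wnt7a), and the Dkk gene with the highest ratio (Dkk1). Each is written 5′ to 3′ on the gene's strand, with every CpG dinucleotide in capitals.
Fzd4, chr7:89404116-89404415, plus strand: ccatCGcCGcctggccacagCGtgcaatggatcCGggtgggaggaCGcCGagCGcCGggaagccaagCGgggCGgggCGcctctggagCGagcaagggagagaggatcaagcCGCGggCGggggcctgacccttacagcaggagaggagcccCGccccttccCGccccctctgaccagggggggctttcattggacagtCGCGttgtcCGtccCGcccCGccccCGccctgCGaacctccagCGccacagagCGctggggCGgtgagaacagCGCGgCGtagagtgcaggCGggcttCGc
Fzd9, chr5:135250998-135251297, minus strand: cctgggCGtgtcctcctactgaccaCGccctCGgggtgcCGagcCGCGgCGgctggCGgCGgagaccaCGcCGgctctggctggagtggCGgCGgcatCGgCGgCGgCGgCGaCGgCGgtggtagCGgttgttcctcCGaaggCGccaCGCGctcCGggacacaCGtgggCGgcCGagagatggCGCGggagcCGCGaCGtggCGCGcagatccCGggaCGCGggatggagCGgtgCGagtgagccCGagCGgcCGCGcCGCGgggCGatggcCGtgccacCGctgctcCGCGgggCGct
Fzd10, chr5:128600856-128601155, plus strand: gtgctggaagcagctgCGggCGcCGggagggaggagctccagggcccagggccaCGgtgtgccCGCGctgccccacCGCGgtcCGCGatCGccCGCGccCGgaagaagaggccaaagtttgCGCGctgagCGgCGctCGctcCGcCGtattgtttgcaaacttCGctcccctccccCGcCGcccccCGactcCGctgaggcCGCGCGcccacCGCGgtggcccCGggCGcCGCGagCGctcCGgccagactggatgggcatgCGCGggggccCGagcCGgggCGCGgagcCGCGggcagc
Wnt7a, chr6:91411304-91411603, minus strand: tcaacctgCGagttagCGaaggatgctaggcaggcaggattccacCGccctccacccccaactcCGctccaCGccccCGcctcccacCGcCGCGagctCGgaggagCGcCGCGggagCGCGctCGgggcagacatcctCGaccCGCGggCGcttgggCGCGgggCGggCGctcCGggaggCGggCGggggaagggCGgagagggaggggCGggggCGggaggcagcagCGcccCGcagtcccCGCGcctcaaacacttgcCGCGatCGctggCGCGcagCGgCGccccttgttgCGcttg
Dkk1, chr19:30549447-30549746, minus strand: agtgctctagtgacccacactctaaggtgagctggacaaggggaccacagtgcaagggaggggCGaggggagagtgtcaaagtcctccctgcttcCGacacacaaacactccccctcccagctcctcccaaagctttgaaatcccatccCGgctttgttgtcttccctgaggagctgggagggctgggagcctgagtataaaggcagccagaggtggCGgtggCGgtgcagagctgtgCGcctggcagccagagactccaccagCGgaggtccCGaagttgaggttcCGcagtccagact
Fzd4 held 32 CpG in this window, Fzd9 held 53, Fzd10 held 45, Wnt7a held 42 and Dkk1 held 9. Windows dense in CpG thus belonged both to genes with a high ratio and to genes without one.

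The Frizzled genes stood apart from the 3 families of secreted proteins. Of 10 Frizzled genes, 6 had over 2-fold more H3K27me3 reads at P17 than at P12 after scaling to the library total (CPM), against 2.76% of all 21808 genes with at least 20 reads and 2.62% of the 12162 with at least 500. None of the 19 Wnt, 4 Sfrp or 4 Dkk genes passed 2-fold in that direction, and no gene of the 4 families was over 2-fold lower, against 0.459% of all genes. The median log2 ratio of P17 over P12 was 1.27 for the Frizzled genes, 0.14 for the Wnt genes, -0.04 for the Sfrp genes and 0.04 for the Dkk genes, beside an all-gene median of -0.08. A gene at that all-gene median is called the typical gene here. In bulk chromatin, more cells carrying the mark and more mark per cell cannot be told apart, and without the input libraries, which were not analysed here, neither can a difference in enrichment between the libraries.

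**Figure D1:**
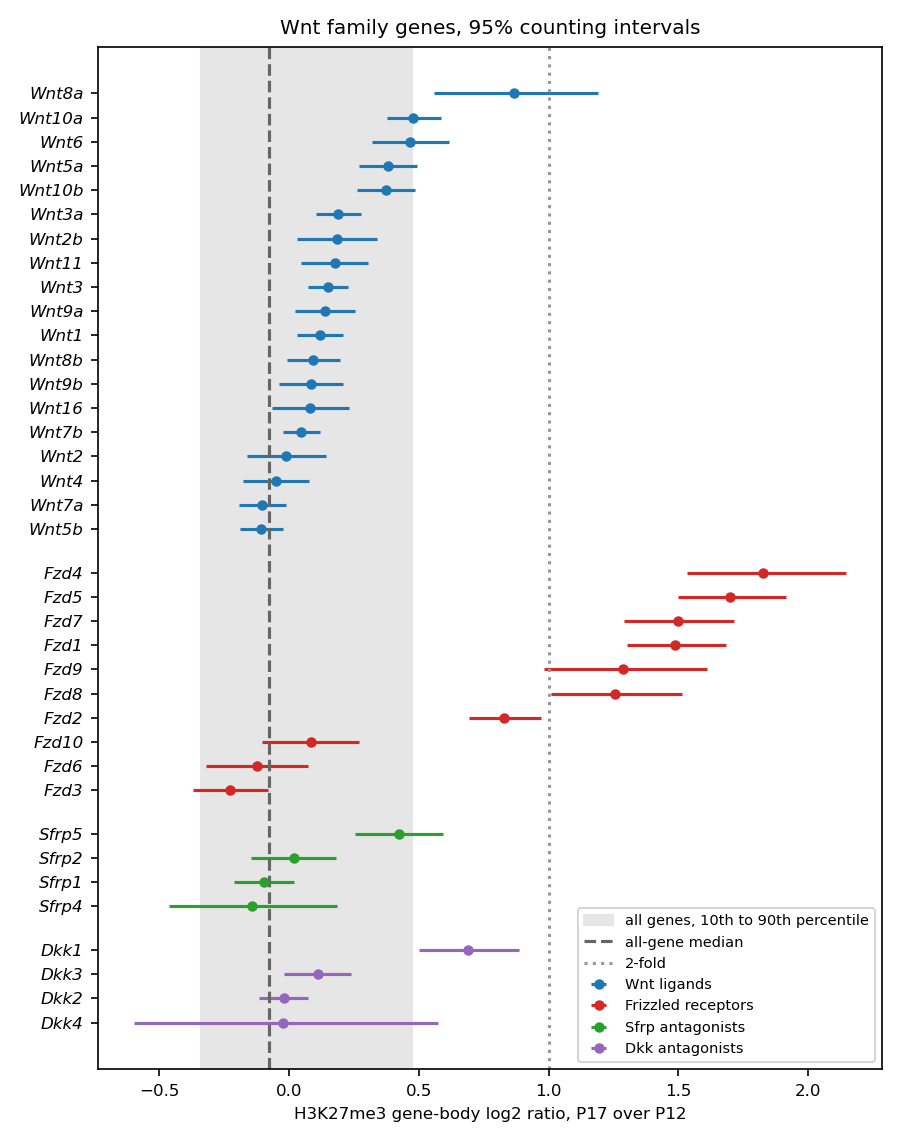
H3K27me3 gene-body log2 ratio of P17 over P12 for each of the 37 genes, coloured by family, with bars for 95% counting intervals, a dashed line at the all-gene median and a grey band for the 10th to 90th percentile of all genes. Of the Frizzled genes, 6 lie past the dotted 2-fold line, while no Wnt, Sfrp or Dkk gene does.

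The ligand-binding receptors with the highest ratios spanned several Frizzled subfamilies. Fzd4, a receptor for the retinal vessel factor Norrin as well as for Wnt ligands, had 27 CPM at P17 and 7.58 CPM at P12 (720 and 102 reads), a log2 ratio of 1.83 (1.53 to 2.15), or 3.55-fold. Fzd5, needed for yolk sac vessels and eye development, had 53.9 CPM at P17 and 16.6 CPM at P12, a log2 ratio of 1.70 (1.50 to 1.91). These ratios ranked 72 and 105 from the highest among the 21808 genes. Fzd8, the nearest paralogue of Fzd5, had 28.2 CPM at P17 and 11.8 CPM at P12, a 2.39-fold ratio with a log2 interval of 1.01 to 1.51. Both members of the Fzd5 and Fzd8 pair were thus past 2-fold.

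Fzd1, Fzd2 and Fzd7 form a subfamily with overlapping roles in embryonic morphogenesis. Fzd7 had 46.0 CPM at P17 and 16.3 CPM at P12, and Fzd1 had 55.3 CPM at P17 and 19.7 CPM at P12. Their log2 ratios, 1.50 (1.29 to 1.71) and 1.49 (1.30 to 1.68), were nearly equal. Fzd2 had 71.9 CPM at P17 and 40.4 CPM at P12, a log2 ratio of 0.83 (0.69 to 0.97). Its interval lay below those of Fzd1 and Fzd7 and below 2-fold, although above the typical gene. With the TMM or median-of-ratios scaling described below, the Fzd2 interval reached 1.05 and so included 2-fold.

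The paralogues Fzd9 and Fzd10 differed from each other. Fzd9, a gene deleted in Williams syndrome in human, had 18.9 CPM at P17 and 7.72 CPM at P12, with a log2 ratio of 1.29 (0.98 to 1.61). Fzd10 had 27.4 CPM at P17 and 25.8 CPM at P12, with a log2 ratio of 0.08 (-0.10 to 0.27). Their intervals did not overlap, whereas their promoter windows, shown above, had similar GC shares of 78.0% and 77.7%.

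Fzd3 and Fzd6, which act mainly in planar cell polarity, in axon guidance and hair patterning, did not share the higher ratio. Fzd3 had 39.2 CPM at P17 and 45.9 CPM at P12, a log2 ratio of -0.23 (-0.37 to -0.08), and was the single gene of the 37 whose interval lay below the typical gene, against 10.1% of all genes; with a 99% interval it no longer did. Fzd6 had 22.7 CPM at P17 and 24.7 CPM at P12, a log2 ratio of -0.12 with an interval that spanned the typical gene. Fzd10 and Fzd6 did not differ from the typical gene beyond counting error.

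Reads summed over a family gave the same order at the top with less distance. Frizzled genes held 10413 reads at P17 and 2915 at P12, or 391 CPM at P17 and 217 CPM at P12, a 1.80-fold ratio of the sums. Wnt genes held 43533 reads at P17 and 19979 at P12, or 1633 CPM at P17 and 1484 CPM at P12, a 1.10-fold ratio. Dkk genes held 197 CPM at P17 and 181 CPM at P12, and Sfrp genes held 147 CPM at P17 and 142 CPM at P12, ratios of 1.09-fold and 1.03-fold. On the log2 scale these sums stood above the typical gene by 0.93 (0.87 to 0.99) for Fzd, 0.21 (0.19 to 0.24) for Wnt, 0.20 (0.13 to 0.27) for Dkk and 0.13 (0.05 to 0.21) for Sfrp. The intervals of Wnt, Dkk and Sfrp overlapped, and that of Fzd was clear of all 3. They cover counting error of the pooled reads and leave out the spread among members, whose log2 ratios ran from -0.23 to 1.83 in Fzd. A difference between families was not tested. The Fzd median exceeded its sum because Fzd2, Fzd3, Fzd6 and Fzd10 held the most P12 reads of the family and had its lowest ratios.

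**Figure D2:**
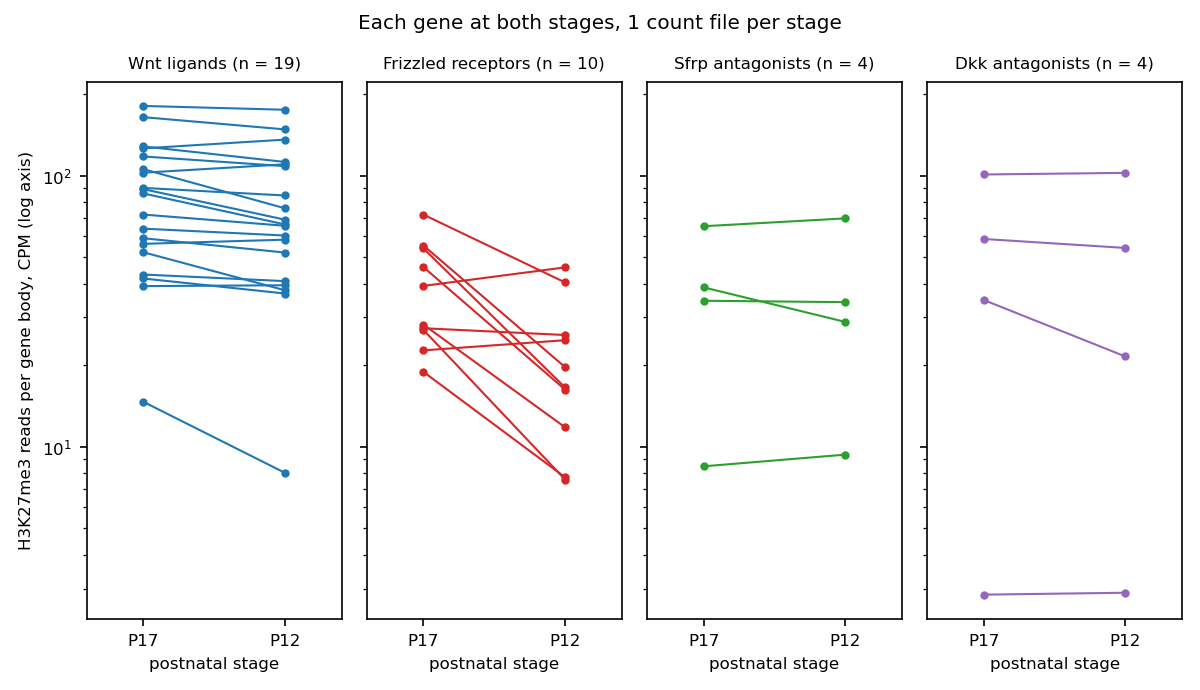
H3K27me3 reads per gene body in CPM on a log axis, with P17 on the left and P12 on the right of each panel; each line joins the values of 1 gene. Frizzled lines slope steeply for 7 of 10 genes, while most Wnt, Sfrp and Dkk lines are nearly level. Gene length was not used, so heights are not comparable between genes.

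Ratios do not show how much signal changed, and the difference in CPM separated Frizzled and Wnt genes less sharply. The median difference, P17 minus P12, was 17.9 CPM for Frizzled genes and 6.53 CPM for Wnt genes, and it was 2.12 CPM for Dkk and -0.24 CPM for Sfrp genes. Differences over 10 CPM were found in 7 of 10 Frizzled, 6 of 19 Wnt, 1 of 4 Dkk and 0 of 4 Sfrp genes, against 8.04% of all genes. The largest was 37.4 CPM at Fzd5, and the largest among the ligands was 29.9 CPM at Wnt10a, whose log2 ratio was only 0.48. Gene lengths were not used, so how far longer genes dilute a local gain of reads was not tested.

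Among the ligands, the difference between stages was small but mostly in 1 direction. Of 19 Wnt genes, 15 had an interval above the typical gene and 0 had one below, and over all 37 members 25 lay above, 11 spanned it and 1 lay below. Of all genes, 21.2% lay above, and of the 12162 genes with at least 500 reads, which resemble the members more in depth, 31.1% did. Over 25% higher were 5 Wnt genes, 7 Frizzled genes, Sfrp5 and Dkk1, 14 of 37 members against 14.8% of all genes. No member was over 20% lower, against 11.3% of all genes. The shares of 14.8% and 11.3% were not computed for genes with at least 500 reads, so they are not matched in depth to the members.

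The ligand with the highest ratio was Wnt8a, expressed in the primitive streak, with 14.7 CPM at P17 and 8.02 CPM at P12 and a log2 ratio of 0.87 (0.56 to 1.19). Wnt10a, a gene of teeth and skin appendages, had 106 CPM at P17 and 75.8 CPM at P12, and its neighbour Wnt6 had 52.2 CPM at P17 and 37.8 CPM at P12. Their log2 ratios were 0.48 (0.38 to 0.58) and 0.46 (0.32 to 0.61). Wnt5a, which directs limb and body axis outgrowth, had 86.0 CPM at P17 and 66.1 CPM at P12, a log2 ratio of 0.38. Wnt10b, an inhibitor of fat cell formation, had 89.2 CPM at P17 and 68.9 CPM at P12, a log2 ratio of 0.37. These 5 ligands were the ones over 25% higher, and all 5 were above the typical gene.

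The next 10 ligands formed a closely spaced group with overlapping intervals from neighbour to neighbour. Their log2 ratios ran from 0.19 at Wnt3a, the somite and tail bud ligand, with 128 CPM at P17 and 112 CPM at P12, to 0.05 at Wnt7b, a lung and brain vessel ligand, with 181 CPM at P17 and 175 CPM at P12. Between these lay Wnt2b at 0.18, Wnt11 at 0.18, Wnt3 at 0.15, Wnt9a at 0.14, Wnt1 at 0.12, Wnt8b at 0.09, Wnt9b at 0.08 and Wnt16 at 0.08. Wnt3, which is required for gastrulation, had 164 CPM at P17 and 148 CPM at P12. Wnt1, which patterns the midbrain, had 118 CPM at P17 and 108 CPM at P12. All 10 had higher scaled reads at P17, and all 10 intervals lay above the typical gene, which stood at -0.08. The intervals of Wnt8b, Wnt9b, Wnt16 and Wnt7b included 0 after scaling to the library total. With TMM or median-of-ratios scaling these intervals lay above 0, so a difference in their scaled reads depended on the scaling.

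The remaining 4 ligands had slightly fewer scaled reads at P17, with intervals that spanned the typical gene. Wnt4, which acts in kidney tubule formation and against the male pathway in the ovary, had 56.1 CPM at P17 and 58.1 CPM at P12, a log2 ratio of -0.05 (-0.18 to 0.08). Wnt2 stood at -0.01, Wnt7a at -0.10 (-0.19 to -0.01) and Wnt5b at -0.11 (-0.19 to -0.02). The ratios of Wnt2 and Wnt4 turned positive with TMM or median-of-ratios scaling, which moved all genes up by 0.07 and 0.08. With either scaling the ratios of Wnt7a and Wnt5b stayed negative, but their intervals included 0. Wnt5b had 126 CPM at P17 and 136 CPM at P12, and the ratio of its paralogue Wnt5a, above, lay on the other side of 0.

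Each antagonist family had a single gene over 25% higher at P17. Dkk1, the head-inducing antagonist, had 34.8 CPM at P17 and 21.5 CPM at P12 and a log2 ratio of 0.69 (0.50 to 0.89). Dkk3, a divergent family member, had 58.4 CPM at P17 and 54.1 CPM at P12, a log2 ratio of 0.11 (-0.02 to 0.24). Dkk2 and Dkk4 stood at -0.02 each, and both turned positive with TMM or median-of-ratios scaling. Dkk4 rested on 76 reads at P17 and 39 at P12, and its interval of -0.60 to 0.57 allowed differences in either direction.

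Sfrp5, which acts redundantly with Sfrp1 and Sfrp2 in axis elongation, had 38.7 CPM at P17 and 28.9 CPM at P12 and a log2 ratio of 0.42 (0.25 to 0.59). Sfrp2 had 34.6 CPM at P17 and 34.2 CPM at P12, a log2 ratio of 0.02. Sfrp1 had 65.1 CPM at P17 and 69.6 CPM at P12, a log2 ratio of -0.10, and Sfrp4 had 8.48 CPM at P17 and 9.36 CPM at P12, a log2 ratio of -0.14. The intervals of Sfrp1, Sfrp2 and Sfrp4 spanned the typical gene, so Sfrp5 was the only gene with an Sfrp symbol above it. The related gene Frzb, listed below with the other antagonists, was also above it, at 0.27 (0.11 to 0.43).

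The genes beside the Frizzled genes had a median ratio near that of the typical gene. The GRCm38 gene table was used only for the order and overlap of genes. The nearest protein-coding gene with counts was taken on each side of every member, leaving out genes that overlap the member. The 20 genes flanking the Frizzled genes had a median log2 ratio of -0.09, from -0.44 to 0.98, and 0 of 20 were over 2-fold higher, where 2.76% of all genes were, so this count does not set them apart from other genes. For Fzd5 the flanking genes Ccnyl1 and Plekhm3 stood at -0.19 and -0.09, and for Fzd9 the genes Baz1b and Fkbp6 stood at -0.23 each. Beside Fzd4, Rab38 and Prss23 stood at 0.28 and 0.35, the highest pair around any Frizzled gene past 2-fold. Tmem135, which overlaps Fzd4 and so was not taken as a flanking gene, stood at -0.14. Among the genes flanking Frizzled genes the highest was Cthrc1 at 0.98, beside Fzd6, whose own ratio was -0.12. Cthrc1 encodes a secreted glycoprotein that can bind Wnt and Frizzled proteins. The highest flanking gene of any member was the innate immune receptor gene Tlr2 at 1.02, beside Sfrp2, whose own ratio was 0.02.

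**Figure D3:**
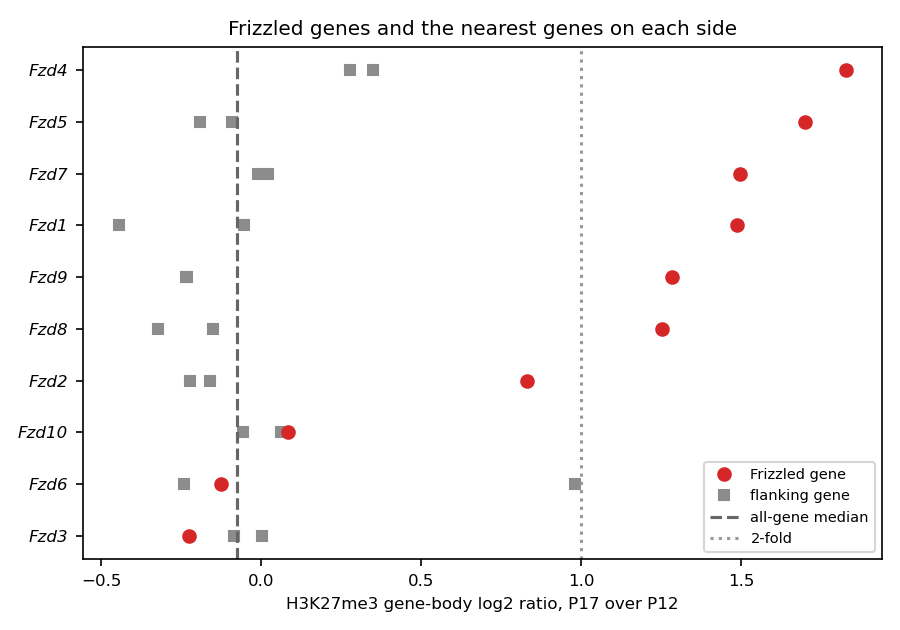
H3K27me3 log2 ratio of P17 over P12 for each Frizzled gene (circles) and for the nearest protein-coding gene on each side that does not overlap it (squares). For the 7 genes at the top, and narrowly for Fzd10 (0.08 against 0.06 and -0.06), the circle lies to the right of both squares. No square reaches the dotted 2-fold line.

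Some ligand genes lay beside genes with similar ratios. Around Wnt6 and Wnt10a, the flanking Prkag3 stood at 0.55 (0.28 to 0.83) and Cdk5r2 at 0.72 (0.58 to 0.85), so all 4 adjacent genes were above the typical gene. Wnt1 and Wnt10b are also neighbours, at 0.12 and 0.37, with Ddn beyond Wnt1 at 0.27 but Arf3 beyond Wnt10b at -0.19. Wnt3a and Wnt9a, another adjacent pair, stood at 0.19 and 0.14 between Arf1 at -0.23 and Prss38 at -0.26. Over all 30 flanking genes of Wnt genes that are not themselves members, the median was -0.13. Gene entries that overlap another counted gene in the GRCm38 table can share reads with it; this concerned Wnt2b with St7l, Wnt3 with Wnt9b, Wnt7b with AU022754, Wnt5b with Fbxl14 and Fzd4 with Tmem135. Tmem135 had a log2 ratio of -0.14.

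The share of genes past 2-fold was alike in promoters with 30 or more CpG and in those with under 10. The 6 Frizzled windows held a median of 35 CpG (16 to 53), the 15 Wnt windows 31 (6 to 58), the 2 Sfrp windows 15 and 22, and the 2 Dkk windows 9 and 11, beside a median of 16 over the 15790 tested genes with a window. Of the 2885 tested genes with 30 or more CpG, 2.18% were over 2-fold higher, and of the 5927 with under 10 CpG, 2.19% were. Genes between these classes were not summarised. Across the 15790 genes Spearman's rho between CpG count and log2 ratio was 0.01, and between GC percent and log2 ratio 0.09, given as descriptions over genes of the same libraries. The Tcf/Lef motif CTTTGAT, searched on both strands, was found in windows of 2 of the 25 members, Wnt11 and Wnt5b, and in 3.70% of the tested genes; neither Frizzled nor antagonist windows held it.

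Of 64 further genes of the Wnt pathway, 12 were over 25% higher, against 14.8% of all genes, and 4 were over 20% lower, against 11.3%. With TMM or median-of-ratios scaling these counts were 18 and 1. None was over 2-fold higher, where 2.76% of all genes were, a share too small to set 64 genes apart. Intervals of 29 lay above the typical gene, against 21.2% of all genes and 31.1% of genes with at least 500 reads. Intervals of 7 lay below, close to the 10.1% of all genes. Their median log2 ratio was 0.00. The 6 co-receptor genes ran from -0.17 at Ryk to 0.17 at Ror2, a Wnt5a receptor, and none was over 25% higher or over 20% lower. Of the ligand-processing genes, Porcn, which lipidates Wnt proteins, stood at -0.47 on 108 reads at P17 and 76 at P12, while Wls, which carries them to the surface, stood at 0.30.

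Among the other 9 antagonists and their receptors the median was 0.20, from Kremen1 at -0.15 to Sostdc1 at 0.46. Of these, 6 were above the typical gene and 0 below, against 21.2% and 10.1% of all genes. Among genes with at least 500 reads, 31.1% were above. R-spondin proteins keep Frizzled proteins at the surface. The 10 genes listed for the R-spondin axis, with the Norrin gene Ndp among them, had a median of -0.05. They ran from the receptor Lgr6 at -0.33 to the receptor Lgr5, an adult stem cell marker, at 0.40. The 19 genes of signal transducers and cell polarity proteins had a median of -0.14, and the membrane polarity gene Vangl2 at 0.69 and the scaffold gene Axin1 at -0.33 were the extremes. Nuclear effectors had a median of 0.01 over 12 genes, from Pygo2 at -0.33 to the co-repressor gene Tle3 at 0.73. The list called feedback targets, which also held the general target genes Myc and Ccnd1, had the highest of these 7 medians, 0.55 over 6 genes. Of these, 4 of 6 were over 25% higher (Axin2, Myc, Sp5 and Ccnd1), against 14.8% of all genes, and Nkd1 stood at -0.01. Axin2, the standard readout gene of beta-catenin signalling, led with 57.4 CPM at P17 and 30.5 CPM at P12, a log2 ratio of 0.91 (0.75 to 1.07), and Nkd2 was lowest at -0.05.

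**Figure D4:**
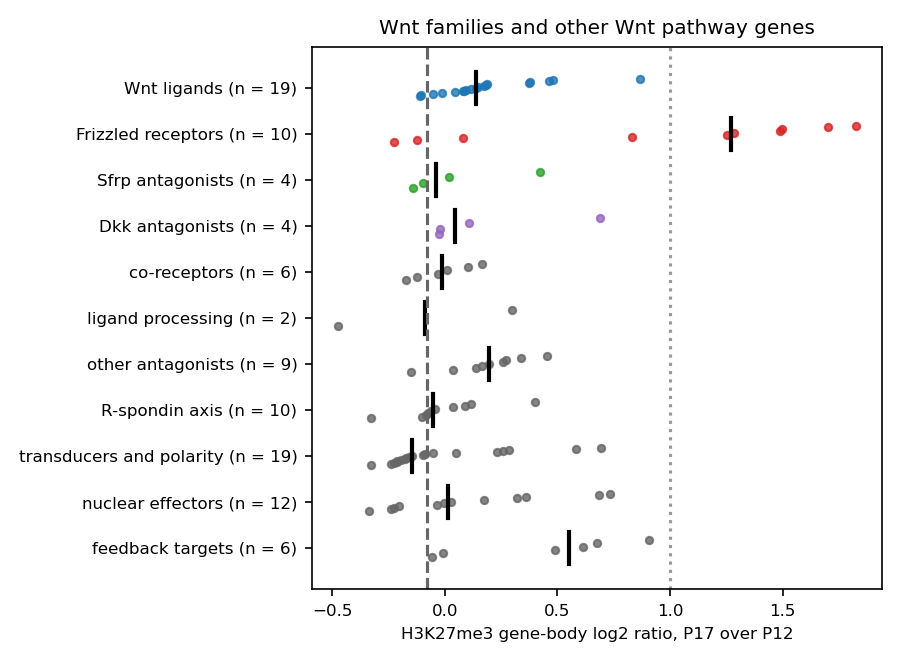
H3K27me3 log2 ratio of P17 over P12 for the genes of the 4 families (coloured) and of 7 further Wnt pathway lists (grey); vertical bars mark list medians, the dashed line the all-gene median and the dotted line 2-fold. The Frizzled median of 1.27 is the only one past the dotted line.

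Reads counted over gene bodies totalled 26664736 at P17 and 13462873 at P12, and the 10th and 90th percentiles of the log2 ratio over all genes were -0.34 and 0.47. All 37 members passed the minimum of 20 reads, with 76 to 4822 reads at P17 and 39 to 2357 at P12. Of the 7528 genes whose summed reads fell within the Frizzled range of 608 to 2460, 3.36% were over 2-fold higher. Gene lists for testis cell types differed in their ratios. The 10 spermatocyte markers had a median log2 ratio of -0.24 (summed level 256 CPM at P17 and 300.3 CPM at P12), and the 9 Sertoli cell markers 0.62 (564 CPM at P17 and 388 CPM at P12), with 8 over 25% higher, against 14.8% of all genes. The 7 spermatogonial markers had a median of 0.04 (843 CPM at P17 and 915 CPM at P12), and the 7 Leydig and peritubular markers 0.13 (196 CPM at P17 and 194 CPM at P12). H3K27me3 reads do not measure expression, so the labelled cell type could not be checked with them, and the part of the cell makeup of the fractions in the Frizzled ratios was not tested.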

How the data were processed

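H3K27me3 was measured by ChIP-seq in mouse spermatocytes. Of 7 samples in the series, only the H3K27me3 gene-body files of P17 and P12 were used here. Reads were aligned to mm9, and Bowtie, SAMtools and HTSeq are named without role or version per the submitters' processing notes. Each deposited table lists unnormalized read counts for gene symbols; the authors' counter was multiBamCov, as the file names state, and no input subtraction is recorded. Peak lists were not used, since they carry mm9 coordinates and no gene names.

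Counts were scaled to the file total. Log2 ratios of P17 over P12 were taken after adding 1 read, adjusted for library size, and required 20 or more reads in the 2 files together. Intervals were exact conditional 95% intervals (scipy 1.17.1, Python 3.11.15). Symbols with several entries (310 entries) stayed in the totals only. With 1 file per stage no test was possible, and interval and fold counts compare the libraries. The ratio and interval steps were tested on simulated data.

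The members and lists were chosen with earlier results of these data known. All members were named, and of each pathway list the highest and lowest ratio. Wls, Ror2, Frzb, Cthrc1, Tlr2 and other flanking genes were named for their position or role. Flanking genes, the 10 CPM limit, the Frizzled read range and the CpG classes were chosen after values had been seen, as were the Wnt7a and Dkk1 windows, since no window was listed for Fzd3, the lowest ratio. For genes with several windows the one with most CpG was used. RefSeq symbols (GRCm38.p6) matched all 37 members. Alternatives were edgeR 4.0.16 TMM factors (R 4.3.3), median-of-ratios factors, a total without the 14 entries over 0.5% of reads, a pseudocount of 5 reads, minimum reads of 1, 100 and 500, leaving out each family's member with most reads, means, and 99% intervals.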

Additional observations from a re-analysis of the deposited data

How the results depend on the processing

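The Frizzled family had 6 genes over 2-fold higher at P17 under the other 2 scalings, without the entries over 0.5% of reads and with a pseudocount of 5 reads; the read minimums could not change this count. Over its alternatives its summed reads stood 0.92 to 0.93 above the typical gene (log2). Scaling moves all genes alike and nearly cancels in such a value, and the read minimums removed no Frizzled gene. The narrow range therefore tests neither setting. Between 24 and 25 of the 37 genes lay above the typical gene, a count that scaling could hardly change either. At the minimum of 500 reads, 34 of the 37 genes remained. TMM and median-of-ratios scaling moved the all-gene median by 0.07 and 0.08, turned the ratios of Wnt2, Wnt4, Dkk2 and Dkk4 positive, and left 1 other pathway gene over 20% lower instead of 4 and 18 over 25% higher instead of 12. Both scalings also put the intervals of Wnt8b, Wnt9b, Wnt16 and Wnt7b above 0. Those of Wnt7a and Wnt5b then included 0, and that of Fzd2 included 2-fold. With at least 500 reads, 2 other pathway genes were over 20% lower and 11 were over 25% higher. The median of the other pathway genes relative to the typical gene was then 0.10 instead of 0.08, over fewer genes. Leaving out the member with most reads raised the summed ratio of Sfrp genes relative to the typical gene to 0.25 and that of Dkk genes to 0.37, since Sfrp1 and Dkk2 hold much of those sums. With means in place of medians the families stood above the typical gene by 1.04 (Fzd), 0.26 (Wnt), 0.13 (Sfrp) and 0.27 (Dkk). With 99% intervals 0 Frizzled genes, and 0 of all members, lay below the typical gene. Of the values for single genes and pathway lists, 300 kept within their band and 5 moved beyond it, all upward. The band was the counting interval for a gene. For a list it was the interval width of the summed reads, centred on the list median. Read minimums could not change a single gene's ratio, so those entries among the 300 could not move. Scaling nearly cancels in the list values, which are relative to the typical gene. No paired analysis was possible because each stage has 1 file. Depth limits the least covered genes, such as Dkk4.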
